A study of Mus musculus with 8 samples.

Results

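Mesenchyme is the loose connective tissue around the eye, and its genes are not those of the neural retina. In dissected mouse retina, 9 genes of periocular mesenchyme were followed, out of 16096 genes in the deposited table, matched by gene name. They comprise the transcription factors Twist1 and Foxc1, the growth factor receptors Pdgfra and Pdgfrb, and the matrix genes Col1a1, Col1a2, Col3a1, Postn and Lum. RNA came from the peripheral retina at embryonic day 16.5, from C57BL/6 mice. The genotype Pax6alpha-Cre:Ezh2fl/null, called cKO below, had 4 libraries, and Pax6alpha-Cre:Ezh2fl/+, called control, had 4 libraries. Each genotype thus carries the Cre transgene and a floxed Ezh2 allele, and the groups differ in the second allele, null or wild type. The Pax6 alpha enhancer drives Cre in cells of the peripheral retina and not in the mesenchyme outside it, so cells of the 2 kinds in a cKO dissection need not have the same Ezh2 genotype. Ezh2 is the methyltransferase of Polycomb repressive complex 2, which marks histone H3 at silenced genes.

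Periocular mesenchyme derives from neural crest and cranial mesoderm and forms the corneal stroma, sclera, choroid and eyelid. Twist1 and Foxc1 are transcription factors of these cells and of their descendants. Pdgfra and Pdgfrb are receptor tyrosine kinases for platelet-derived growth factors; Pdgfra is also known from the astrocyte precursors that enter the retina along the optic nerve, and Pdgfrb from the pericytes of blood vessels. Col1a1 and Col1a2 encode the chains of type I collagen and Col3a1 that of type III collagen, the fibrils of connective tissue. Postn encodes periostin, a protein that fibroblasts secrete into the matrix, and Lum encodes lumican, a proteoglycan that spaces collagen fibrils, as in the corneal stroma.

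Total counts ran from 13994825 to 18391647 per library. Replicates are separate samples in the labels, which do not tie them to embryos or litters; the p-values reflect only how these samples vary, which may be technical. Ezh2 itself was at 0.21 on the log2 scale in cKO against control (Benjamini-Hochberg adjusted p = 0.0701 by edgeR's quasi-likelihood test). That count covers the whole gene and does not check a deletion of part of it, so cKO and control stand throughout for what the libraries are labelled. Xist and Y-linked counts put cKO replicates 2 and 3 apart as female, and the other 6 libraries as male. All 12 retina markers examined were counted in each group, with a sum of 2237 to 2447 CPM in cKO and 2400 to 2580 CPM in control (CPM, counts per library scaled to a common library size). The 9 mesenchyme genes were far less abundant. Their deposited FPKM, a level scaled to gene length and to the reads of the library, averaged 0.0593 to 2.85 in control, against a median of 5.89 over all genes of the table.

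The transcription factors and Pdgfra rose in the cKO libraries, whereas Pdgfrb and the matrix genes did not pass the test. The filter on low counts kept 8 of the 9 genes, and Lum, with 39 counts in cKO and 26 in control, did not. Of the 8 genes tested, 3 were called higher (edgeR quasi-likelihood test, adjusted p under 0.05), where 8.35% of all 15014 genes tested were called higher and 3.46% lower. The same 3 genes were the ones whose cKO libraries all lay above all control libraries, an order seen in 10.1% of all genes tested (the reverse order in 6.21%, no overlap in either direction in 16.3%). Since the genes were proposed with earlier results of these data known, these counts describe the genes and support nothing further. Twist1 and Foxc1 also passed the filter on low counts only through their cKO libraries, so the share called was in part set by the filter. In bulk RNA, more cells of a type and more RNA per cell cannot be told apart.

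**Figure D1:**
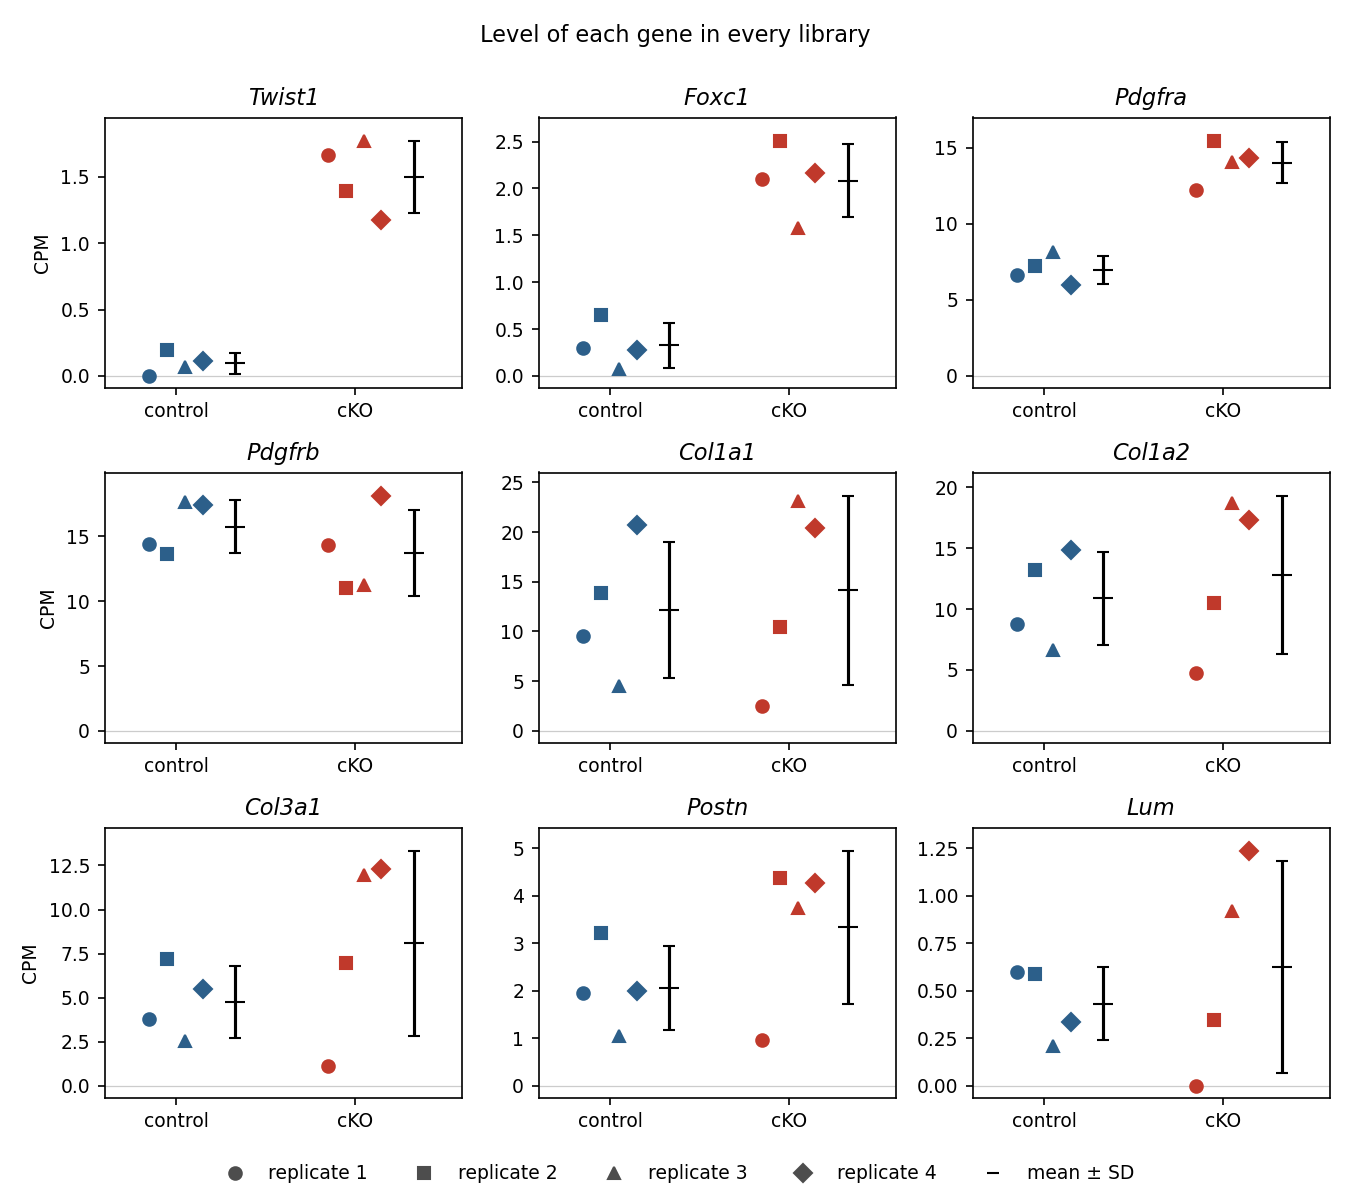
CPM (y axis, from 0) of the 9 genes in each of the 4 control and 4 cKO libraries; each point is a library, its shape gives the replicate number, and the bar gives the mean ± SD. The points of Twist1, Foxc1 and Pdgfra do not overlap between groups, whereas those of the other 6 genes do, with cKO replicate 1 at the bottom of each matrix gene.

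Twist1 (ENSMUSG00000035799, mm10 chromosome 12, 33957671 to 33959829, plus strand) encodes a basic helix-loop-helix factor of mesenchyme and cranial neural crest. The 4 cKO libraries, in replicate order, held 1.67, 1.39, 1.77 and 1.17 CPM. The 4 control libraries held 0, 0.196, 0.0701 and 0.111 CPM. Values below are in replicate order throughout. The groups did not overlap, and the lowest cKO library stood well above the highest control library. The reads were few, 97 in cKO and 6 in control over 4 libraries each. On average Twist1 stood at 1.501 ± 0.270 CPM in cKO and 0.0945 ± 0.0821 CPM in control (SD, n = 4 each). This was a change of 3.83 on the log2 scale (SE 0.41, 95% limits 2.94 to 4.71), with an edgeR adjusted p = 1.87e-05. The ratio of the summed counts per normalized library size was 15.3, with an exact 95% binomial interval of 6.77 to 42.6 that covers counting error only. For control replicate 1, a count of 0 allows up to 0.225 CPM, the level of 3 counts, which is still below the cKO range.

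Foxc1 (ENSMUSG00000050295, chromosome 13, 31806633 to 31812476, plus strand) encodes a forkhead factor needed in the mesenchyme of the anterior eye. Its cKO libraries stood at 2.10, 2.51, 1.57 and 2.16 CPM. Its control libraries stood at 0.2995, 0.655, 0.0701 and 0.278 CPM. Again each cKO library exceeded each control library. The mean level was 2.085 ± 0.385 CPM in cKO and 0.326 ± 0.243 CPM in control (SD, n = 4 each), a log2 fold change of 2.63 (SE 0.35, 95% limits 1.89 to 3.38; edgeR adjusted p = 0.000118). The summed counts, 134 against 20, gave a ratio of 6.33 with an exact 95% interval of 3.94 to 10.7.

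The region before the start site is shown for the 2 factors and for Col3a1, because these differ in their content of CG dinucleotides, a sequence feature for which Polycomb target promoters are known. Each line gives the 250 bases before the RefSeq start site on the plus strand (GRCm38.p6, the assembly that mm10 names), with CG in capitals.
Twist1, chr12:33957421-33957670: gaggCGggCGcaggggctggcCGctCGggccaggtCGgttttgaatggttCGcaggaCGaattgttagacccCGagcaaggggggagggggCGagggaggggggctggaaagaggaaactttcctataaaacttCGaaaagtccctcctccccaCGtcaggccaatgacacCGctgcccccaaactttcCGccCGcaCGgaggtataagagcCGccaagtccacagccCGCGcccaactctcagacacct
Foxc1, chr13:31806396-31806645: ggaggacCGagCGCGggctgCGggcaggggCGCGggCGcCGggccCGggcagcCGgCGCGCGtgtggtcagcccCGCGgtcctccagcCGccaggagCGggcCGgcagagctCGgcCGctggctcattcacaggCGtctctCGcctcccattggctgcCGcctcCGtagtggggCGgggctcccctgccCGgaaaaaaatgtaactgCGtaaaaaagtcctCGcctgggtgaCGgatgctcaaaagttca
Col3a1, chr1:45311288-45311537: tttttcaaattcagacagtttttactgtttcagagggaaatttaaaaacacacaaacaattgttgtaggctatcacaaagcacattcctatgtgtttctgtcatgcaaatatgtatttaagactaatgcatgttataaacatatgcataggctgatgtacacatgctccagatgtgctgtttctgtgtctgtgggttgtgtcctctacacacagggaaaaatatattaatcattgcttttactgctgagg
The Twist1 stretch held 18 CG, the Foxc1 stretch 29 and the Col3a1 stretch 0. Over windows of 300 bases that also take in 50 bases after the start, Twist1 had 27 CG and Foxc1 32, more than 84.5% and 90.5% of the 32851 RefSeq windows of that length, whose median was 7. The Col1a2 window had 13, the Pdgfra window 5, both Postn windows 4 and 5, and the Col3a1 window 0. RefSeq windows were matched for 6 of the 9 genes; those of Pdgfrb, Col1a1 and Lum were not used here. Pdgfra, which was called higher, had a window with 5 CG, and Col1a2, which did not pass the test, had one with 13. Whether CG content bears on the changes was not tested. The E-box CANNTG, the letters that helix-loop-helix factors such as Twist1 bind, occurred 4 times in the Col3a1 window, 2 times in the Pdgfra window and in none of the Twist1, Foxc1, Col1a2 and Postn windows (both strands; 72.3% of all windows hold it). The letters TATAAA occurred in the windows of Twist1 and Col3a1 and in 1 of the 2 Postn windows, against 13.6% of all windows. CCAAT occurred in those of Twist1, Foxc1, Col1a2 and the other Postn window, against 37.4% of all windows. These matches are descriptions of the letters and show no binding.

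Pdgfra rose about as much in each cKO library, and its relative Pdgfrb did not pass the test. Pdgfra (ENSMUSG00000029231, chromosome 5, 75152292 to 75198215, plus strand) had cKO values of 12.2, 15.5, 14.1 and 14.3 CPM. Its control values were 6.66, 7.204, 8.14 and 5.96 CPM. The cKO libraries lay in a narrow range above the controls. Pdgfra averaged 14.02 ± 1.35 CPM in cKO and 6.99 ± 0.918 CPM in control (SD, n = 4 each), a log2 fold change of 1.01 (SE 0.11, 95% limits 0.77 to 1.24; edgeR adjusted p = 1.79e-05). Pdgfra has an antisense transcript, Gm42802, annotated within it; use of strand in the counting was not given in the sources used here, and reads of the pair may not be told apart.

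Pdgfrb (ENSMUSG00000024620) had cKO values of 14.3, 11.0, 11.3 and 18.1 CPM, and control values of 14.4, 13.6, 17.6 and 17.4 CPM. The groups overlapped, with the highest and the lowest value both in cKO. Pdgfrb had a log2 fold change of -0.20 (SE 0.14, 95% limits -0.50 to 0.10; edgeR adjusted p = 0.444). The limits of Pdgfrb lie below those of Pdgfra, 0.77 to 1.24. The 2 low cKO libraries of Pdgfrb were the 2 female ones. With sex as a covariate the direction turned, to 0.04 (edgeR adjusted p = 0.934). The 6 male libraries alone, in effect the same contrast, gave 0.04 (edgeR adjusted p = 0.934). The part of sex in this gene was not tested further. The ratio of Pdgfra to Pdgfrb CPM within a library was 0.850, 1.41, 1.25 and 0.792 in cKO and 0.464, 0.529, 0.462 and 0.343 in control. Every cKO library thus held more Pdgfra for its Pdgfrb than any control library did.

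**Figure D2:**
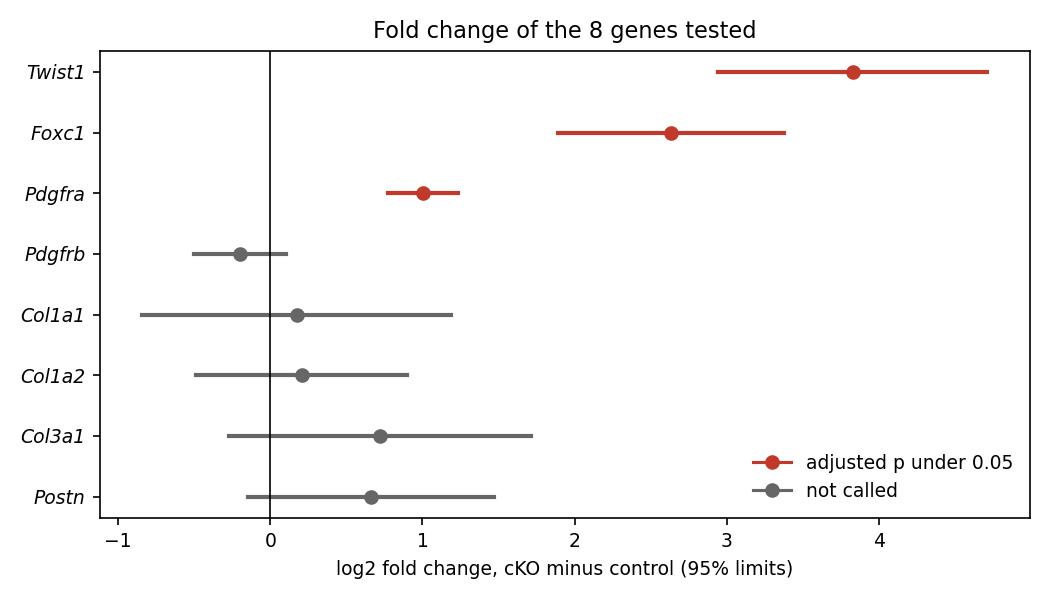
Log2 fold change of cKO minus control (x axis) for the 8 genes tested, as points with 95% limits from the quasi-likelihood test; red marks an adjusted p under 0.05 and grey the genes not called. The limits of Twist1, Foxc1 and Pdgfra lie above 0, and those of Pdgfrb and the 4 matrix genes include 0, with Col1a1 and Col3a1 the widest of these 4.

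The matrix genes varied several-fold between libraries of the same genotype, and the groups overlapped for each of them. Col1a1 (ENSMUSG00000001506, chromosome 11, 94936224 to 94953042, plus strand) had cKO values of 2.53, 10.4, 23.2 and 20.5 CPM. Its control values were 9.58, 13.9, 4.49 and 20.7 CPM. The highest cKO library had 9.17 times the level of the lowest, and the highest control 4.603 times that of the lowest. Between groups the log2 fold change came to 0.17 (SE 0.47, 95% limits -0.84 to 1.19; edgeR adjusted p = 0.877).

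Col1a2 (ENSMUSG00000029661, chromosome 6, 4504814 to 4541544, plus strand), the partner chain, stood at 4.73, 10.5, 18.7 and 17.3 CPM in cKO and at 8.76, 13.2, 6.66 and 14.9 CPM in control. Its libraries followed the same order as those of Col1a1 in both groups. For Col1a2 the log2 fold change came to 0.21 (SE 0.32, 95% limits -0.49 to 0.90; edgeR adjusted p = 0.771). The direction of Col1a1 and Col1a2 was not stable: with the male libraries alone they were at -0.14 and -0.02.

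Col3a1 (ENSMUSG00000026043, chromosome 1, 45311538 to 45349706, plus strand) had cKO values of 1.13, 6.96, 11.9 and 12.3 CPM. The controls were at 3.82, 7.204, 2.52 and 5.51 CPM. Only cKO replicates 3 and 4 exceeded all controls. Col3a1 had a log2 fold change of 0.72 (SE 0.46, 95% limits -0.27 to 1.71; edgeR adjusted p = 0.390). Without cKO replicate 1 it was 1.11 and passed the test (edgeR adjusted p = 0.0149; the 19 alternatives gave 0.0149 to 0.848). It was lower with limma-voom (0.27), with the male libraries alone (0.44), with sex as a covariate (0.44), and without cKO replicate 3 (0.47) or 4 (0.43).

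Postn (ENSMUSG00000027750, chromosome 3, 54361109 to 54391037, plus strand) stood at 0.967, 4.39, 3.74 and 4.26 CPM in cKO and at 1.95, 3.21, 1.05 and 2.005 CPM in control. The cKO libraries exceeded all controls except for cKO replicate 1, which lay below all of them. Postn had a log2 fold change of 0.66 (SE 0.38, 95% limits -0.15 to 1.47; edgeR adjusted p = 0.323). Without cKO replicate 1 it was 1.00 and passed (edgeR adjusted p = 0.0206). With the male libraries alone and with sex as a covariate it was lower, at 0.30 in each, and without control replicate 3 it was 0.45. The count of the 8 genes called higher was therefore 5 without that library, and 3 in every other alternative tried.

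Lum (ENSMUSG00000036446, chromosome 10, 97565128 to 97572703, plus strand) was the scarcest matrix gene by counts. It had 0, 5, 14 and 20 counts in the cKO libraries and 8, 9, 3 and 6 in the controls. The cKO values spanned a wider range than the controls and enclosed them. With no filter on low counts its log2 fold change was 0.50 (95% limits -0.91 to 1.91; edgeR adjusted p = 0.718).

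The matrix genes shared the libraries in which they were low. All 5 were lowest in cKO replicate 1 among the 8 libraries, and all 5 had their lowest control value in control replicate 3. Summed over the 5 genes, the level was 9.35, 32.7, 58.4 and 55.5 CPM in the cKO libraries and 24.7, 38.0, 14.9 and 43.4 CPM in the controls. In cKO the factors did not share this order. Twist1 in cKO replicate 1 was the second highest of the 8 libraries, and Foxc1 there lay within the range of the other cKO libraries. In the controls, Foxc1 was lowest in replicate 3 (0.0701 CPM), as the matrix genes were. It was highest in control replicate 2, as Col3a1 and Postn were. Twist1 was lowest in control replicate 1 and highest in control replicate 2. The share of counts from mitochondrial rRNA, 13.7% and 13.5%, was higher in the controls with less matrix (replicates 1 and 3) than in replicates 2 and 4, with 8.72% and 8.19%. In cKO replicates 1 to 4 it was 11.1%, 14.01%, 10.8% and 9.84%, so the library with least matrix was not the one with most mitochondrial rRNA. With this share as a covariate the log2 fold change was 0.39 for Col1a1, 0.33 for Col1a2, 0.86 for Col3a1 and 0.71 for Postn, and none of these 4 genes passed (edgeR adjusted p from 0.271 to 0.654).

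**Figure D3:**
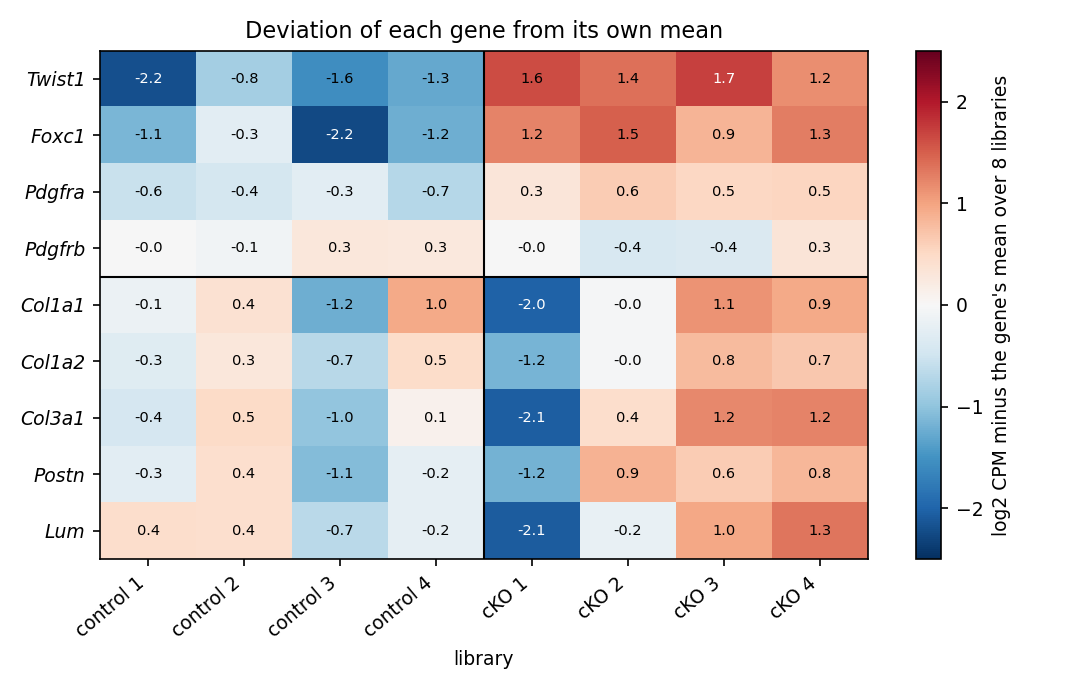
Log2 CPM of each gene (rows) in each library (columns) minus that gene's mean over the 8 libraries, as colour and printed value, with 2 counts added before the log; lines separate the groups and the 4 factors and receptors from the 5 matrix genes. The rows of Twist1, Foxc1 and Pdgfra change sign at the line between groups, and the 5 matrix rows share their lowest value in cKO replicate 1.

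The spread between libraries was also estimated for each gene tested. The biological coefficient of variation, the spread within groups beyond counting noise as edgeR estimates it, was 47.8% for Col1a1, 45.9% for Col3a1, 34.7% for Postn and 31.4% for Col1a2. Genes of like abundance had trend values of 8.28%, 9.76%, 12.01% and 8.43%. For Twist1, Foxc1 and Pdgfra it was 11.1%, 13.1% and 8.39%, against trend values of 13.6%, 13.3% and 8.62%. Pdgfrb lay between, at 13.1% against 8.15%. The matrix genes were thus several times as variable as genes of their abundance, and the limits on their fold changes are correspondingly wide.

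Factors and receptors were compared with matrix genes within each library by the mean log2 CPM of each set (2 counts added before the log). The 4 factors and receptors averaged 2.37, 2.36, 2.26 and 2.40 in the cKO libraries. In the controls they averaged 0.61, 1.17, 0.63 and 0.84. These values were close together in cKO and did not overlap between groups. The 5 matrix genes averaged 0.24, 2.15, 2.88 and 2.94 in cKO and 1.80, 2.33, 1.01 and 2.15 in control, with full overlap. The difference, factors and receptors minus matrix, was 2.13, 0.21, -0.62 and -0.54 in cKO and -1.19, -1.17, -0.38 and -1.31 in control. Its mean was 0.30 ± 1.28 in cKO and -1.01 ± 0.43 in control (SD, n = 4 each), 1.31 higher in cKO. Control replicate 3 overlapped with cKO replicates 3 and 4. The value of 1.31 leaned on cKO replicate 1, without which it was 0.69. No p is given, because the genes were chosen with their changes known.

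**Figure D4:**
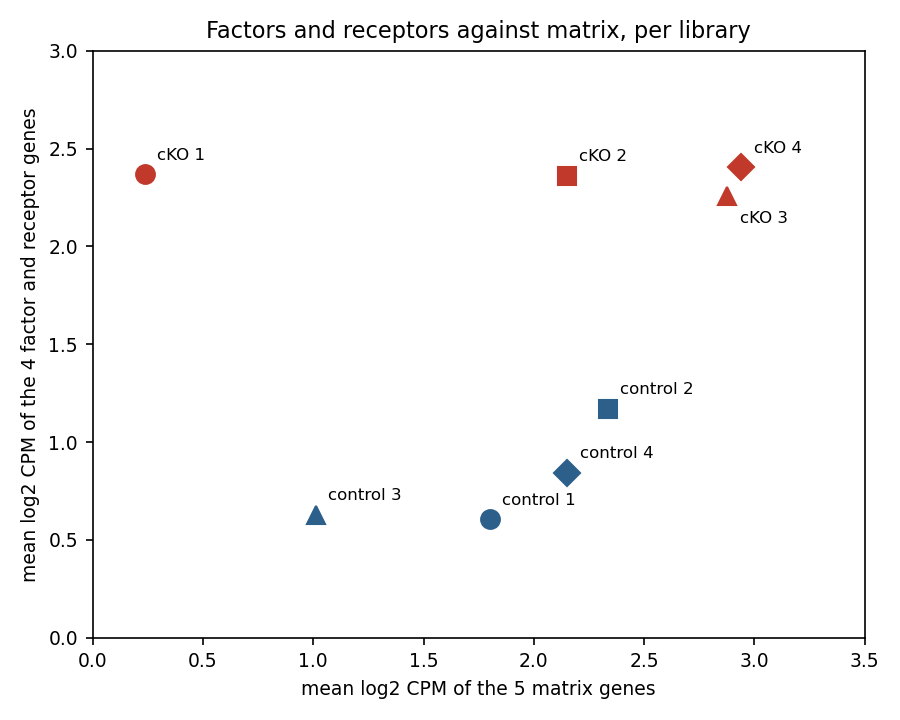
Mean log2 CPM of the 4 factor and receptor genes (y axis) against that of the 5 matrix genes (x axis), 1 point per library, with colour for group and shape for replicate. The 4 cKO libraries lie in a band at 2.26 to 2.40 on the y axis while spanning 0.24 to 2.94 on the x axis, and the controls lie at 0.61 to 1.17 on the y axis.

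Per length, the order of the mean levels also differed between the groups. In control the FPKM ran from Pdgfrb (2.85 ± 0.385) through Col1a1 (1.87 ± 1.11), Pdgfra (1.03 ± 0.115), Col1a2 (0.897 ± 0.349), Col3a1 (0.571 ± 0.262), Postn (0.262 ± 0.120) and Lum (0.207 ± 0.0922) to Foxc1 (0.0821 ± 0.0629) and Twist1 (0.0593 ± 0.0524; SD, n = 4). Neighbours in the stretch from Pdgfrb to Col3a1 differed by less than the larger of their SDs, as did Postn from Lum and Foxc1 from Twist1. In cKO, the means of Twist1 at 0.935 ± 0.171 and Foxc1 at 0.525 ± 0.0893 stood above Postn (0.429 ± 0.205) and Lum (0.306 ± 0.276). For Foxc1 this order did not hold in each library. In cKO replicate 3 it was at 0.401, below Postn (0.485) and Lum (0.450). In cKO replicate 4 it was at 0.558, below Postn (0.561) and Lum (0.613). Pdgfra at 2.09 ± 0.181 came near Pdgfrb at 2.52 ± 0.659 and Col1a1 at 2.18 ± 1.49, and Col3a1 was at 0.976 ± 0.644 and Col1a2 at 1.07 ± 0.551. Twist1 and Foxc1 together came to 1.31 to 1.57 FPKM in the cKO libraries and 0.0581 to 0.292 in the controls. The 5 matrix genes together came to 1.04 to 7.53 and 1.69 to 5.64 FPKM. The FPKM of Col1a2 rests on a length of 12144 bases and that of Col1a1 on 6567 bases, as implied by the ratio of deposited counts to FPKM; by counts alone Col1a1 and Col1a2 had a mean ratio of 0.987 ± 0.320 in cKO and 1.05 ± 0.294 in control.

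In the authors' deposited table the log2 ratio was 1.98 for Twist1, 1.74 for Foxc1, 0.95 for Pdgfra and -0.19 for Pdgfrb. The authors' deposited table gives 0.37 for Postn, 0.30 for Col3a1, 0.22 for Lum, 0.14 for Col1a2 and 0.08 for Col1a1. These ratios have the same signs as the fold changes computed here and lie closer to 0.

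Other transcription factors of mesenchyme and neural crest included 8 that rose. Of 34 such genes listed, 15 were tested: 8 were called higher, 1 lower and 6 did not pass, where 8.35% of all genes were higher and 3.46% lower. The median log2 fold change was 0.35, against -0.01 over all genes tested. Genes with almost no control reads pass the filter only through cKO, so the share called was in part set by the filter. Alx1, an Aristaless-type homeobox gene of the cranial mesenchyme, was at 5.08 ± 0.461 against 0.0829 ± 0.0898 CPM (log2 5.81), and its relative Alx4 at 1.66 ± 0.125 against 0.320 ± 0.0962 CPM (log2 2.37). Prrx1, of limb and head mesenchyme, was at 5.40 ± 0.742 against 1.40 ± 0.360 CPM (log2 1.93). Eya1, a transcriptional cofactor and phosphatase, rose by log2 0.93. The most abundant genes of the list by FPKM were Tfap2b (25.4), which amacrine and horizontal cells also express, and Zeb2 (17.1). Tfap2b rose by log2 0.35, and Sox9, which retinal progenitors also express, fell to log2 -0.38.

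Among PDGF ligands, Pdgfa and Pdgfb rose. Pdgfa, a ligand of Pdgfra that retinal neurons make, was at 4.40 ± 0.682 against 2.69 ± 0.223 CPM (SD, n = 4; log2 0.72, edgeR adjusted p = 0.00465). Pdgfb, which vessels use to recruit pericytes, was at 1.45 ± 0.137 against 0.580 ± 0.121 CPM (log2 1.33, edgeR adjusted p = 0.00157). Pdgfc was at log2 -0.05 and Pdgfd at -0.19, and neither passed. Of 9 ligands and signalling partners tested, 2 were higher, 1 lower and 6 not called, with a median of -0.05 (8.35% higher and 3.46% lower over all genes). The lower one was the adaptor gene Shc1, at log2 -0.30 (edgeR adjusted p = 0.0420), a call lost in 9 of 19 alternatives. The partners with the highest FPKM, Ptpn11 (21.4) and Plcg1 (16.8), did not pass.

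Among other collagens, 3 of 13 tested were called higher (8.35% of all genes tested) and 10 not called, with a median log2 fold change of 0.32. The higher genes were Col5a1 (log2 0.26) and Col5a2 (0.32), chains of the type V collagen that joins type I fibrils, and the type VI chain Col6a2 (0.37). Col5a1 was at 28.9 ± 1.94 against 24.1 ± 1.57 CPM and Col5a2 at 43.1 ± 5.46 against 34.7 ± 1.46 CPM (SD, n = 4). With sex as a covariate all 3 calls were lost (edgeR adjusted p = 0.117, 0.142 and 0.131 for Col5a1, Col5a2 and Col6a2), at log2 0.25, 0.25 and 0.34, and with the male libraries alone only Col5a2 was called. The calls were lost in 6, 2 and 7 of 19 alternatives in all. The collagens with the highest FPKM, Col2a1 (12.8) and Col6a1 (8.04), did not pass.

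Among matrix genes, 3 of the stroma and 5 of collagen processing rose. Of 16 other stromal matrix and proteoglycan genes tested, 3 were higher and 13 not called, with a median of 0.15, against 8.35% higher over all genes. Tnc, which encodes the glycoprotein tenascin C, rose from 1.66 ± 0.385 to 4.92 ± 1.06 CPM (log2 1.58), the proteoglycan gene Prelp by log2 0.98 and the fibulin gene Fbln2 by log2 0.68. The collagen-binding gene Sparc had the highest FPKM of this list (44.9) and did not pass, nor did the microfibril gene Mfap2 (13.3). Of 18 genes for folding, crosslinking and processing of collagen, 5 were higher and 13 not called, with a median of 0.06 (8.35% of all genes higher). This count was 1 with the male libraries alone, 3 with sex as a covariate, and 3 higher with 1 lower by DESeq2. The crosslinking enzyme gene Loxl1 rose from 2.95 ± 0.296 to 5.83 ± 0.683 CPM (log2 0.98), the enhancer of procollagen cleavage Pcolce2 by 0.74, the lysyl hydroxylase gene Plod1 by 0.38, Fkbp10 by 0.30 and the procollagen protease gene Bmp1 by 0.26. The calls of Bmp1 and Fkbp10 were lost in 6 and 5 of 19 alternatives, and those of Pcolce2 and Plod1 in 2 and 1. The abundant chaperone genes P4hb (140 FPKM) and Serpinh1 (108 FPKM) did not pass.

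**Figure D5:**
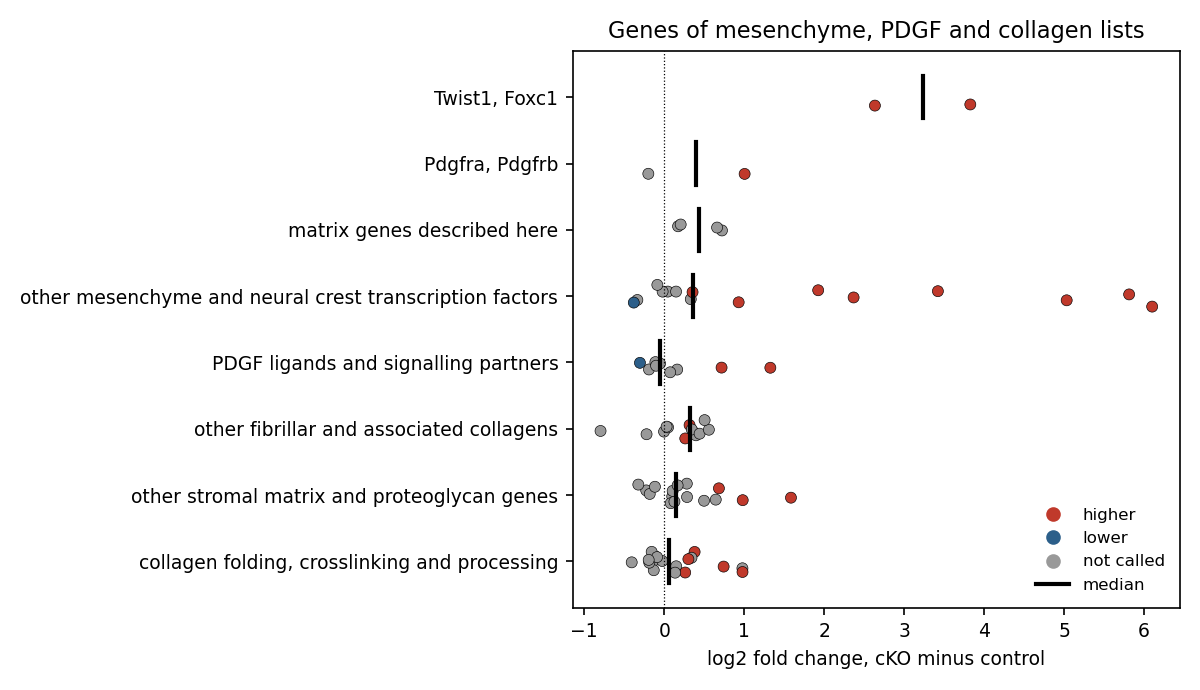
Log2 fold change of cKO minus control (x axis) of each gene tested in 8 sets (y axis), with red for higher, blue for lower and grey for not called, and a black bar at the median of the set; points are spread vertically for legibility. Twist1 and Foxc1 lie at 3.83 and 2.63 and Alx1 at 5.81, whereas the matrix and collagen genes lie nearer 0, with Tnc at 1.58 the highest of them.

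Markers of other cell types a dissection could hold were counted beside these genes. The list of skeletal muscle genes (5 of 8 in the table) moved with the matrix genes: it summed to 4.30 CPM in cKO replicate 1 against 12.7, 13.9 and 14.2 CPM in the other cKO libraries, and to 2.94 CPM in control replicate 3 against 7.29, 7.11 and 6.98 CPM. Its defining factors Myod1, Myog and Myf5 were not among the genes found by name. The erythroid sum had another order, with 94.1 CPM in cKO replicate 4 as the lowest and 1320 CPM in control replicate 2 as the highest. Pigment epithelium genes (8 of 11 in the table) summed to 24.1 to 38.1 CPM in cKO and 18.9 to 47.8 CPM in control. Among pericyte genes (9 of 11 in the table) the sums were 92.5 to 118 and 106 to 146 CPM, most of it from Ndufa4l2 and Notch3. Among endothelial genes (7 of 11) they were 324 to 378 and 380 to 416 CPM, nearly all from Kdr and Ramp2, with the defining gene Pecam1 at 0.597 and 0.524 CPM. Retinal astrocyte genes (4 of 7) summed to 235 to 258 and 240 to 264 CPM, most of it from Slc1a3, which Müller glia and progenitors share. Aldh1l1 was at 3.67 and 2.71 CPM, and Gfap, Pax2 and S100b were not among the genes found by name. The lens list summed to 10.6 CPM in cKO replicate 2 and 14.9 CPM in control replicate 1, and to at most 3.64 CPM elsewhere. Surface epithelium genes (6 of 8 in the table) summed to 30.0 to 32.8 CPM in cKO and 13.6 to 23.2 CPM in control, microglia genes (8 of 8) to 45.2 to 52.5 and 33.0 to 39.7 CPM, and melanocyte and Schwann cell genes (4 of 6) to 117 to 124 and 124 to 133 CPM. Of the genes tested on these lists, edgeR called Cspg4 higher and Ndufa4l2 lower among 6 for pericytes, Cldn5 and Egfl7 higher and Kdr lower among 5 for endothelium, Aqp4 higher among 4 for astrocytes and Rlbp1 higher among 7 for pigment epithelium. It called Krt18 and Epcam higher among 4 for surface epithelium, Cx3cr1, C1qb and P2ry12 higher among 7 for microglia, Tnnt1 higher among 4 for muscle, and Erbb3 higher and Ednrb lower among 4 for melanocytes and Schwann cells. Among the 12 retina genes, 2 were called higher and 4 lower. Over all genes tested, 8.35% were called higher and 3.46% lower. The 6 erythroid and 2 lens genes tested did not pass. The part of these cells in the changes of Twist1, Foxc1, Pdgfra and the matrix genes was not tested. Twist1, Foxc1 and Pdgfra were called higher without the 2 libraries with lens counts, with the male libraries alone and without cKO replicate 1.

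The genes whose log2 CPM most resembled that of Twist1 over the 8 libraries, among 14291 genes with at least 1 CPM on average, were Lamp5 (Pearson r = 0.991), Tgm2 (0.990), Tbx15 (0.990), Gm20412 (0.986) and Epcam (0.986). All 5 were called higher in cKO, from log2 1.08 for Tgm2 to 3.08 for Lamp5, so the likeness reflects the step between groups. The 9 mesenchyme genes themselves were left out of these candidates. Col1a1 followed Col1a2 at r = 0.986, Col3a1 at 0.934, Lum at 0.868 and Postn at 0.805. Outside the 9 genes, those most like Col1a1 were Gucd1 (0.954), Zdhhc1 (0.952), 2610524H06Rik (0.938), Arhgef39 (0.930) and Srprb (0.929). Gucd1 ran only from 33.4 to 39.7 CPM over the libraries, where Col1a1 ran from 2.53 to 23.2 CPM. For deviations from the group means, Col1a1 followed Col1a2 at 0.990 and Col3a1 at 0.951, and outside the 9 genes those most like it were Gucd1 (0.988), Rps2 (0.987), Hist2h3b (0.983), Nsmf (0.977) and Zdhhc1 (0.974). Being the highest of many over 8 libraries, these values are descriptions.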

How the data were processed

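The authors deposited 1 table of 16096 genes, with counts and FPKM for each of the 8 libraries and a log2 ratio and adjusted p column for the comparison. Alignment used Novoalign 2.08.01 and mm10, and testing used DESeq2, per the submitters' processing notes. Which counter and annotation were used was not given in the sources used here. Counts were deposited as whole reads per gene without normalization. The authors' FPKM values are scaled to gene length and library reads, and served only to compare genes. The authors' log2 ratio is quoted as deposited. The column of adjusted p that the authors deposited reaches beyond 1, so it was read as a score of unstated scale and left unused.

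Counts were tested over the whole table with edgeR 4.0.16 (R 4.3.3): filterByExpr with a minimum count of 10, TMM normalization, glmQLFit and glmQLFTest, 4 against 4 libraries, no covariate, Benjamini-Hochberg over 15014 genes, called at an adjusted p under 0.05. The filter left out 1082 genes. CPM use normalized library sizes, except for marker sums, which divide by total counts. SE and 95% limits come from the quasi-likelihood F. The fit was first tested on simulated counts. DESeq2 1.42.0 and limma 3.58.1 (voom) were alternatives.

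The members and gene lists were chosen with earlier results of these data known. The genes named were the members, up to 6 called genes and the 2 with the highest FPKM per list, the abundant markers, and the genes most like Twist1 and Col1a1; Sox9, Pdgfc, Pdgfd, the called markers and the genes under other observations were named after their values were seen. Some genes that the rule selects are not reported here. Coordinates are from GENCODE M21 (mm10), and start sites from RefSeq.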

Additional observations from a re-analysis of the deposited data

How the results depend on the processing

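Twist1, Foxc1 and Pdgfra kept their direction and call in all 19 refits, at log2 3.49 to 4.36, 2.33 to 3.20 and 0.93 to 1.08. Each had the smallest exact two-sided permutation p that 70 assignments allow (0.0286, unadjusted). Any gene whose groups do not overlap has this p, so it restates the order of the libraries and adds no support. Members called higher numbered 3 to 5 when single libraries were left out, with the 5 coming without cKO replicate 1. Pdgfrb turned to 0.0359 with the male libraries alone and 0.0363 with sex as a covariate. Col1a1 turned to -0.12 with limma-voom, -0.14 with the male libraries alone, -0.15 with sex as a covariate, and -0.17, -0.08 and -0.09 without cKO replicate 3, cKO replicate 4 and control replicate 3 (range -0.17 to 0.58 with single libraries left out). Col1a2 turned to -0.0224 with the male libraries, -0.0236 with sex as a covariate and -0.0350 without cKO replicate 3 (range -0.0350 to 0.50). The cause was not tested. The factor-minus-matrix difference of 1.31 ran from 0.69 to 1.62 with single libraries left out and was 1.82 with the male libraries, 1.81 with sex as a covariate, 1.72 with 0.5 counts added and 1.09 on log2 of FPKM plus 0.1. The groups did not overlap in it with 0.5 counts added or without control replicate 3. They overlapped with any other single library left out, with the male libraries and on FPKM.

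Over all genes, 1253 higher and 520 lower calls became 800 and 255 with the male libraries, 795 and 246 with sex as a covariate, 1289 and 273 with library size alone (82.5% higher against 70.7%), and 996 and 323 without the 2 libraries with lens counts; lower calls ran from 329 (without control replicate 3) to 667 with single libraries left out. Higher calls over the 5 lists, 21 in all, ran from 15 (male libraries alone) to 26 (no filter). Lower calls over them, 2 in all, were 4 with DESeq2, 1 with library size alone, 1 with the male libraries, 1 with sex as a covariate, and 1 to 4 with single libraries left out. A covariate for mitochondrial rRNA, added after the data were seen, gave 1235 and 511. Same-numbered deviations correlated at 0.23, -0.09, 0.01 and 0.17, and those of unlike number at -0.22 to 0.16. These values do not settle whether replicate numbers pair the libraries. With the replicate block, 1179 genes were higher and 497 lower, and 3 members were called, as without it. The few reads of Twist1, Foxc1 and Lum limit their precision.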

Other observations

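Several further mesenchyme regulators had reads mostly in cKO but did not pass the filter on low counts, and are given here from the fit with no filter. Msx1, a homeobox gene of cranial mesenchyme and of the ciliary body, had 98 counts in cKO and 17 in control, its relative Msx2 had 49 and 12, Prrx2 had 26 and 6, and the neural crest gene Foxd3 had 21 and 0. Msx1, Msx2 and Foxd3 were called higher in that fit (edgeR adjusted p = 0.00437, 0.0115 and 0.0141), and Prrx2 was not (0.0552). These calls took the higher genes on the list of transcription factors from 8 of 15 tested to 11 of 21. Over all 16096 genes of the fit with no filter, 1324 were called higher and 541 lower. Snai2, which acts in neural crest migration, had 32 and 40, and Meox1 had 27 and 18, and neither passed. Among scarce matrix genes that did not pass in the fit with no filter, Bgn had 47 counts in cKO and 20 in control, Thbs2 63 and 31, Mfap5 31 and 15, and Tgfbi 26 and 31. Aspn, Col27a1 and Adamts2 did not pass either. The collagen gene Col5a3, with 30 and 7 counts, was called higher in the fit with no filter (edgeR adjusted p = 0.0466). So was Leprel1 of the collagen processing list, with 53 and 20 counts (edgeR adjusted p = 0.0286). Lumican's relatives Dcn and Ogn were tested and stood at log2 0.50 and 0.28, neither passing (edgeR adjusted p = 0.555 and 0.734). Genes of small vessels also had few reads, Plvap with 41 and 7 counts (called higher, edgeR adjusted p = 0.00985) and Rgs5 with 36 and 13 (not called, 0.3303). The other genes of the pericyte and endothelial lists that the filter left out were not called either. Abcc9 had 32 and 33 counts, Cdh5 30 and 20, and Anpep 41 and 17.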
